A study of Mus musculus with 10 samples.

Results

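The genes described here are the origin licensing genes Cdc6, Cdt1, Gmnn and Mcm10 and the 6 subunits of the MCM helicase, Mcm2, Mcm3, Mcm4, Mcm5, Mcm6 and Mcm7. They were listed by name for their role, at a time when earlier results of these data were known, and all 10 were found among the 54838 genes listed for each library. RNA of jejunal crypts from 5 WT and 5 Arid3a cKO mice had been sequenced, 1 library per animal, to ask what loss of the transcription factor ARID3A changes in the intestinal epithelium. The cKO animals carried VillinCre-ERT2+/- and Arid3a fl/fl, so that tamoxifen switches on Cre in cells that use the Villin promoter, which are epithelial, while the other cells of the crypt fraction keep the gene. Animals of both genotypes received tamoxifen on 3 consecutive days and were taken 1 month after the first injection, and villi were scraped away before the crypts were released. The labels do not say whether the WT animals carried the Cre transgene, and they give neither age nor sex. The identifiers of the animals differ in their stem between the genotypes, so a colony or litter difference cannot be told apart from the genotype.

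A cell licenses its replication origins in G1 phase. The origin recognition complex, CDC6 and CDT1 load the ring of MCM2 to MCM7 onto DNA as an inactive double helicase, and in S phase CDC45, the GINS complex and MCM10 turn the ring into a moving helicase. Geminin, the product of Gmnn, binds CDT1 and prevents loading after S phase has begun, and geminin protein is destroyed at the end of mitosis. In the small intestine these genes are used by the dividing stem and transit amplifying cells of the crypt, while the differentiated enterocytes of the villus do not divide.

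Total expected counts were 27050455 to 28152743 per WT library and 28314069 to 31053622 per cKO library. Arid3a itself had 1.92, 2.07, 2.75, 2.68 and 2.69 CPM (expected counts scaled by library size and TMM factor) in the WT libraries and 0.303, 0.516, 0.490, 0.884 and 1.17 CPM in the cKO libraries, so every cKO library lay below every WT library, as labelled. Epithelial markers were present in all libraries, with a summed level of 5757 to 6741 CPM in WT and 6616 to 7535 CPM in cKO. The share of counts from mitochondrial genes was 5.81% to 8.27% in WT and 8.34% to 10.7% in cKO. This share did not overlap between the genotypes, and its part in the results below was not tested. WT replicate 4 had the lowest share of all libraries.

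Transcripts of 9 of the 10 licensing genes were lower in cKO crypts, at 60.7% to 77.7% of the WT level, and for each of the 9 every cKO library lay below every WT library. The loader Cdc6 and the helicase subunit Mcm5 differed most. Gmnn, the inhibitor of CDT1, was the member that did not pass the test. Its cKO mean was 93.0% of the WT mean in CPM, where the genotypes overlapped, although they did not overlap in TPM. The test was edgeR's quasi-likelihood test on expected counts, adjusted by the Benjamini-Hochberg method over 14719 tested genes and called at an adjusted p below 0.05. Of all tested genes, 12.7% were called lower, 15.6% were called higher, and in 7.63% every cKO library was below every WT library. Without WT replicate 4, 7.6% of the tested genes were called lower and the same number of members, 9, was called. The median log2 fold change was −0.52 over the 10 licensing genes and −0.03 over all tested genes. In bulk RNA, fewer cells that use a gene and less RNA per cell cannot be told apart.

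**Figure D1:**
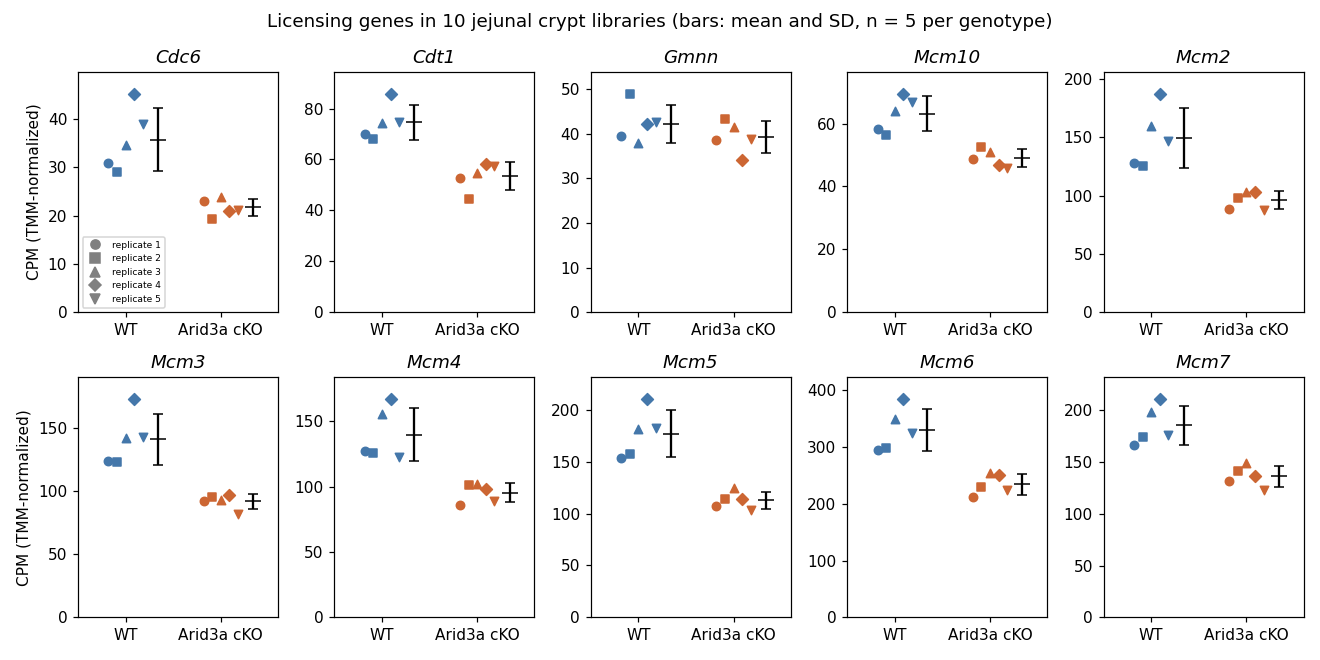
Level of each licensing gene in CPM (TMM-normalized, linear axis from 0) in the 5 WT and 5 Arid3a cKO libraries; marker shapes give the replicate number, bars the mean and SD. In 9 panels the cKO points lie below all WT points, WT replicate 4 is the highest point, and the Gmnn points of the genotypes overlap.

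Cdc6 encodes the ATPase that joins the origin recognition complex and recruits the helicase. Its level was 30.8, 29.1, 34.6, 45.3 and 39.1 CPM in WT replicates 1 to 5, and 23.1, 19.3, 23.9, 21.0 and 21.2 CPM in cKO replicates 1 to 5. The lowest WT library stood 5.15 CPM above the highest cKO library. The log2 fold change was −0.72 (SE 0.12, 95% interval −0.97 to −0.47; edgeR's quasi-likelihood test, Benjamini-Hochberg adjusted p = 0.0016). Cdc6 was also the member with the fewest reads, 523 to 1351 counts per library, where counting alone gives a coefficient of variation of 4.37% at the lowest count.

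Cdt1, whose protein brings the MCM ring to the origin and is the target of geminin, had 69.8, 68.1, 74.2, 85.8 and 74.8 CPM in the WT libraries. The cKO libraries had 52.8, 44.5, 54.8, 58.1 and 57.3 CPM. The genotypes were separated by 9.97 CPM, and the log2 fold change was −0.48 (SE 0.09, 95% interval −0.67 to −0.29; edgeR's quasi-likelihood test, Benjamini-Hochberg adjusted p = 0.00275). Cdt1 lies on chromosome 8 of GRCm38 (122568015 to 122573554, plus strand) inside the annotated same-strand gene Gm20388, so the authors' counting may have split its reads.

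Gmnn had 39.4, 49.0, 38.0, 42.1 and 42.7 CPM in WT and 38.6, 43.4, 41.6, 34.1 and 38.7 CPM in cKO. The CPM ranges overlapped, and WT replicate 2, not replicate 4, was the highest WT library. In TPM the ranges did not overlap, at 61.14 to 72.5 in WT and 51.96 to 60.43 in cKO. The log2 fold change was −0.10 (SE 0.09), with a 95% interval from −0.29 to 0.08 that leaves room for a decrease to 81.7% or an increase to 106% of the WT level (edgeR's quasi-likelihood test, Benjamini-Hochberg adjusted p = 0.384). A two-sided exact permutation test of 5 against 5 gave p = 0.286. Gmnn had 1002 to 1422 counts per library, at least as many as the least counted Cdc6 library. TMM factors ran from 1.00 to 1.08 in WT libraries and from 0.934 to 0.986 in cKO libraries. The call for Gmnn depended on the scaling. It passed without TMM factors (log2 fold change −0.24, edgeR's quasi-likelihood test, Benjamini-Hochberg adjusted p = 0.0386), where the median of all genes moved to −0.16, and in limma on log2(TPM + 1) (−0.22, adjusted p = 0.0368), where that median was −0.10.

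Mcm10, which acts with CDC45 and GINS when the loaded helicase is activated, had 58.4, 56.5, 64.1, 69.5 and 66.9 CPM in WT. The cKO libraries had 48.8, 52.5, 51.0, 47.0 and 45.7 CPM. It showed the smallest difference of the 9 called members, with a log2 fold change of −0.36 (SE 0.07, 95% interval −0.52 to −0.20; edgeR's quasi-likelihood test, Benjamini-Hochberg adjusted p = 0.0046), and a gap of 3.95 CPM between the genotypes.

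The 6 helicase subunits form 1 ring in which each protein occurs once. Mcm5 had 153, 158, 181, 210.3 and 183 CPM in WT and 107, 114, 125, 114 and 103 CPM in cKO. The smallest distance between the genotypes was 28.6 CPM. Its log2 fold change of −0.65 (SE 0.09, 95% interval −0.85 to −0.46) had the lowest adjusted p of the members (edgeR's quasi-likelihood test, Benjamini-Hochberg adjusted p = 0.000847).

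Mcm2 and Mcm3 differed by about the same amount. Mcm2 had 128, 125, 159.9, 187 and 147 CPM in WT and 88.1, 98.0, 103, 103 and 87.8 CPM in cKO. Mcm3 had 124, 123, 142.5, 173 and 143 CPM in WT and 92.3, 95.3, 93.0, 97.5 and 82.5 CPM in cKO. The log2 fold change of Mcm2 was −0.64 (SE 0.11, 95% interval −0.87 to −0.41; edgeR's quasi-likelihood test, Benjamini-Hochberg adjusted p = 0.00185) and that of Mcm3 was −0.62 (SE 0.09, 95% interval −0.82 to −0.42; adjusted p = 0.00121). Neither gene overlapped between the genotypes, and both were highest in WT replicate 4.

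Mcm4 encodes a subunit of the catalytic core of the helicase, with MCM6 and MCM7. It had 127, 126, 155, 167 and 122 CPM in WT and 86.0, 101, 102, 98.0 and 88.8 CPM in cKO. The log2 fold change was −0.55 (SE 0.10, 95% interval −0.76 to −0.34; edgeR's quasi-likelihood test, Benjamini-Hochberg adjusted p = 0.00225). The lowest WT library, replicate 5, was 20.2 CPM above the highest cKO library.

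Mcm6 was the most abundant member. It had 295, 297, 349, 384 and 323 CPM in WT and 211, 229, 253, 250.3 and 224 CPM in cKO, and reached 11465 counts in a library. Its log2 fold change was −0.50 (SE 0.09, 95% interval −0.68 to −0.31; edgeR's quasi-likelihood test, Benjamini-Hochberg adjusted p = 0.00213). No cKO library came within 41.9 CPM of a WT library.

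Mcm7 had 167, 175, 199, 211 and 176 CPM in WT and 132, 141.5, 149, 136 and 123 CPM in cKO. It had the smallest difference of the helicase subunits, with a log2 fold change of −0.45 (SE 0.08, 95% interval −0.62 to −0.27; edgeR's quasi-likelihood test, Benjamini-Hochberg adjusted p = 0.00249), and the genotypes were 18.3 CPM apart. Mcm7 hosts the microRNAs Mir25, Mir93 and Mir106b in its introns and overlaps Cops6 and Ap4m1 on the opposite strand. The strand setting of the counting is not given in the sources used here, so some of its reads may belong to those genes.

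**Figure D2:**
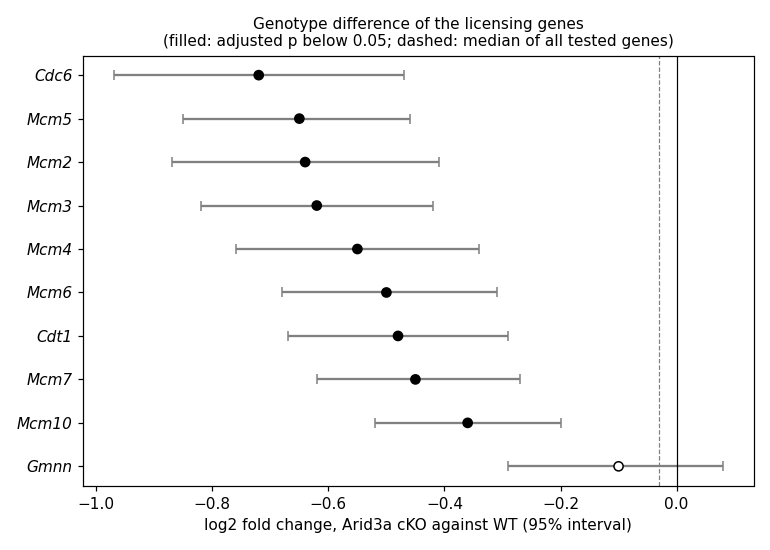
Log2 fold change of each licensing gene, Arid3a cKO against WT, with its 95% interval; filled points passed the test, and the dashed line is the median of all tested genes at −0.03. The 9 filled points run from −0.72 (Cdc6) to −0.36 (Mcm10), and the interval of Gmnn spans 0.

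For the 9 called members the permutation p over samples was 0.00794 each, the smallest that all assignments of 5 against 5 animals can give. The spread between animals was wider in WT than in cKO for 9 of the 10 genes, with a coefficient of variation of 8.79% to 18.3% in WT and 5.72% to 10.2% in cKO, and Cdt1 was the exception. WT replicate 4 was the highest WT library for every member except Gmnn, and WT replicate 3 was the next highest for Mcm2, Mcm4, Mcm6 and Mcm7. With both of these libraries left out, all 9 calls remained, the median log2 fold change of the members was −0.40, and the share of all tested genes called lower was 4.5%. The largest adjusted p of a called member over 21 alternatives was 0.0365, for Mcm10 when the effective transcript length was taken into account.

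The authors' TPM values allow levels to be compared between genes, because they are per transcript length. In WT the order of the mean TPM was Mcm6 (151 ± 24.0, SD, n = 5), Mcm7 (122 ± 23.2), Mcm5 (89.7 ± 15.1), Mcm3 (82.1 ± 17.0), Gmnn (66.2 ± 5.08), Mcm2 (60.5 ± 12.3), Cdt1 (58.1 ± 7.91), Mcm4 (52.3 ± 10.3), Mcm10 (27.9 ± 3.35) and Cdc6 (16.5 ± 3.71). The neighbours from Mcm6 down to Mcm4 overlapped in their ranges over animals, while Mcm10 was below Mcm4 and Cdc6 below Mcm10 without overlap. Within each WT animal, however, Mcm6 exceeded Mcm7 and Mcm7 exceeded Mcm5 in 5 of 5 libraries.

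In cKO crypts Gmnn came directly after Mcm6 and Mcm7 in this order. The mean TPM there was 99.7 ± 9.78 for Mcm6, 83.1 ± 5.23 for Mcm7, 56.5 ± 3.59 for Gmnn, 52.6 ± 4.26 for Mcm5 and 50.7 ± 3.41 for Mcm3 (SD, n = 5). Below these came Cdt1 at 37.7 ± 7.12, Mcm2 at 36.8 ± 3.16, Mcm4 at 33.3 ± 2.70, Mcm10 at 21.7 ± 1.06 and Cdc6 at 9.34 ± 0.782. Gmnn exceeded Mcm5 in 4 of 5 cKO libraries, and their ranges overlapped. Mcm7 and Gmnn, and Mcm6 and Mcm7, did not overlap in cKO.

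The level of Gmnn relative to the helicase was compared directly, a measure chosen after the values had been seen. The log2 ratio of Gmnn TPM to the mean TPM of Mcm2 to Mcm7 was −0.47 ± 0.24 in WT and −0.07 ± 0.15 in cKO (SD, n = 5). It was 0.40 higher in cKO (two-sided exact permutation test, p = 0.0159), and on expected counts, where transcript length plays no part, it was 0.44 higher (exact permutation test, p = 0.0159). Both scales use the same libraries, from whose values the measure was chosen. These p values are unadjusted and describe the difference without being independent support for it. The ranges overlapped, from −0.76 to −0.13 in WT and from −0.32 to 0.05 in cKO on TPM. The log2 ratio of Gmnn to its target Cdt1 was 0.20 ± 0.22 in WT and 0.61 ± 0.38 in cKO, a difference that did not pass the adjustment over 9 shares and ratios (exact permutation test, p = 0.0635, Benjamini-Hochberg adjusted p = 0.114). The ratio of Cdc6 to Cdt1 did not pass either (log2 difference −0.16, exact permutation test, Benjamini-Hochberg adjusted p = 0.316).

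The balance of the helicase subunits changed little in size. Each subunit's share of the summed TPM of Mcm2 to Mcm7 was 27.1% ± 0.624 for Mcm6, 21.8% ± 0.614 for Mcm7, 16.1% ± 0.456 for Mcm5, 14.7% ± 1.21 for Mcm3, 10.8% ± 0.443 for Mcm2 and 9.37% ± 0.595 for Mcm4 in WT (SD, n = 5). In cKO these shares were 28.0% ± 1.01, 23.4% ± 0.394, 14.8% ± 0.257, 14.3% ± 0.571, 10.3% ± 0.230 and 9.35% ± 0.303 in the same order. The Mcm5 share was lower by 1.35 percentage points in cKO and the Mcm7 share higher by 1.54. Neither overlapped between the genotypes (exact permutation test, p = 0.00794 each, Benjamini-Hochberg adjusted p = 0.0357 over the 9 measures). For Mcm7 the ranges nearly met, at 22.865% in WT replicate 3 and 22.886% in cKO replicate 4. The log2 ratio of Mcm10 to the mean of the helicase subunits was −1.73 ± 0.10 in WT and −1.45 ± 0.14 in cKO (exact permutation test, p = 0.0159, Benjamini-Hochberg adjusted p = 0.0476). None of the 9 measures passed when expected counts replaced TPM, although the direction of these 3 stayed, with an adjusted p of 0.0714 each (exact permutation test). The Mcm5 and Mcm7 calls were also lost without cKO replicate 1, 2, 3 or 5, at the same adjusted p (exact permutation test). In these settings the differences stayed at −1.43 to −1.28 percentage points for Mcm5 and 1.43 to 1.62 for Mcm7. Both calls were kept without any single WT replicate and without cKO replicate 4, at an adjusted p of 0.0238 to 0.0476 (exact permutation test). The Mcm10 call was kept without WT replicate 5 or cKO replicate 4 and lost without any other single library, at an adjusted p of 0.0714 or 0.0952 (exact permutation test).

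**Figure D3:**
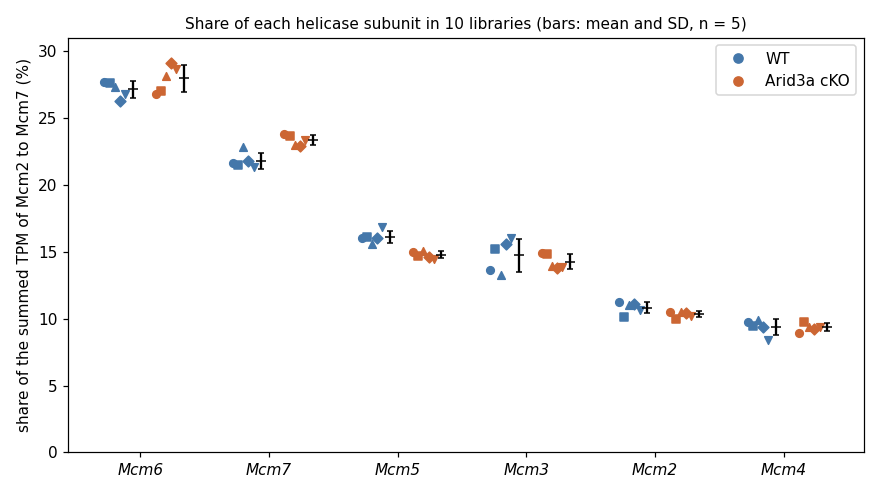
Share of each helicase subunit in the summed TPM of Mcm2 to Mcm7 (%, linear axis from 0) in each library, with the mean and SD per genotype. Mcm7 runs from 21.3% to 22.865% in WT and from 22.886% to 23.8% in cKO. Mcm5 runs from 15.6% to 16.9% in WT and from 14.5% to 15.1% in cKO, and the other subunits overlap.

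The length that RSEM gives a gene is the mean of its transcript lengths weighted by their estimated abundance, so it moves with isoform use. No member's length passed the test over 11860 genes whose length varied, and 0.00% of those genes did (exact permutation test, Benjamini-Hochberg adjusted). The smallest p this permutation test can give is 0.00794. After adjustment over 11860 genes, a gene could pass only if a large share of them reached that p together. The smallest adjusted p of any gene was 0.21 (exact permutation test, Benjamini-Hochberg adjusted). The lack of calls therefore does not show that lengths were unchanged. At an unadjusted p of at most 0.05 there were 2 members and 1547 of all 11860 genes. The 2 were Mcm5, at 2654 ± 13.8 bases in WT and 2680 ± 17.2 in cKO (exact permutation test, p = 0.0317, adjusted p = 0.32), and Mcm10, at 3023 ± 90.0 and 2830 ± 151 bases (exact permutation test, p = 0.0397, adjusted p = 0.345). These are also 2 of the 3 genes whose share or ratio on the TPM scale passed.

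Promoter windows from RefSeq (GRCm38.p6, 250 bases before to 50 after a gene's start) were found for 8 of the 10 members, the genes apart from Mcm4 and Gmnn. They were searched on both strands for 4 spellings of the E2F site, TTTCCCGC, TTTGGCGC, TTTGCCGC and TTTCGCGC, since E2F factors are known regulators of G1/S genes. At least 1 spelling was present for 6 members, Cdc6, Cdt1, Mcm3, Mcm5, Mcm6 and Mcm7. By window, it was in 6 of the 9 member windows, as Mcm7 has more than 1, and in 2.26% of all 32851 windows. In Mcm3 and Cdt1 the matches lay only after the start. The spellings can overlap one another on opposite strands, as they do in Mcm5 and Mcm6. CCAAT, the box of the factor NF-Y, was present for 6 members, in 7 of the 9 member windows and in 37.4% of all windows. The cell cycle homology region, spelled TTTGAA or TTCGAA, was present for 2 members, Mcm2 and Mcm7. It was in 2 of the 9 member windows and in 19.2% of all windows. ATTAAA, an AT-rich word searched because ARID3A binds AT-rich DNA, was present for no member and in 13.9% of windows. A match of letters is not a binding site, and the absence of a word says only that it is not in the window. Stretches upstream of the start that hold E2F spellings, in capitals, are shown for the 2 helicase subunits and the loader whose stretch met no annotated exon. They lie at chr1:128359725-128359835 (minus strand, Mcm6), chr8:75109336-75109387 (plus strand, Mcm5) and chr11:98907993-98908040 (plus strand, Cdc6).
Mcm6: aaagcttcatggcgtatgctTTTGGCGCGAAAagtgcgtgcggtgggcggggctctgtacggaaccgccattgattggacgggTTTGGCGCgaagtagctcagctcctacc
Mcm5: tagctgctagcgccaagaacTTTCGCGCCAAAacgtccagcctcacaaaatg
Cdc6: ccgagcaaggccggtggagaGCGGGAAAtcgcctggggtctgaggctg
In Mcm6 the upstream spellings began 110 and 47 bases before the start on the coding strand and 106 bases before it on the other. In Mcm5 the pair began 153 and 149 bases before the start, and in Cdc6 the match began at 138 bases. The Cdc6 start used by RefSeq lies inside the gene as GENCODE draws it (chr11:98907801-98923940), so the stretch is upstream of the RefSeq start only.

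The pattern of a gene over the 10 libraries was compared with that of every other tested gene by the root mean square difference of log2 CPM after each gene was centred on its own mean. Mcm2 and Mcm5 were each other's nearest gene, at 0.0601. Mcm3 was nearest to Csnk1e (0.0569), Mcm4 to Rrm1, a subunit of ribonucleotide reductase (0.0735), Mcm6 to Ddx51 (0.0466), and Mcm7 to Rpa1, a subunit of the single-strand binding protein of the fork (0.0342). Over the 30 nearest places, 3 for each member, 6 were taken by other members, all of them among Mcm2 to Mcm6. The genes nearest to the mean profile of Mcm2 to Mcm7 were Ddx51 (0.058), Rpa1 (0.0621), Patz1 (0.0658), Shmt1 (0.0676) and Pprc1 (0.0679). Against that mean profile Mcm10 ranked 172, Cdt1 241, Cdc6 303 and Gmnn 4904 of 14713 genes. The profiles hold the genotype difference and share the same libraries, so these distances describe the data and carry no test.

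Cdc6 was nearest to 1700017B05Rik (0.0579), Dctd (0.0916) and the origin recognition gene Orc1 (0.0995). Cdt1 was nearest to Cfap43 (0.0744), Mcm10 to Srrt (0.0392) and Gmnn to Gtf3c6 (0.0362). The next places were taken by Ipo4 and Pip4k2b for Cdt1, Mllt1 and Sept11 for Mcm10, and Tmem11 and Bbip1 for Gmnn.

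Genes that work with the licensing factors were taken from 6 lists of 61 genes, of which 58 were tested. In these lists 37 genes were lower in cKO, 0 were higher, and 55 had a log2 fold change below 0. The median over these lists was −0.36. With WT replicates 3 and 4 both left out, 24 were lower. Without TMM factors the share of all tested genes called lower was 27.4% and the share called higher 10.5%, in place of 12.7% and 15.6%, and on log2(TPM + 1) the shares were 18.8% and 9.6%.

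The origin recognition complex, which marks origins before licensing, was taken as a list of its own. Of its 6 subunits, Orc1, Orc2 and Orc6 were lower and Orc3, Orc4 and Orc5 did not pass. Orc1 had the largest change, from 15.3 ± 2.85 to 10.2 ± 0.812 CPM (log2 fold change −0.59, edgeR's quasi-likelihood test, Benjamini-Hochberg adjusted p = 0.00564). Orc6 had the highest level, from 39.5 ± 5.21 to 26.9 ± 1.73 TPM. Its log2 fold change, from TMM-scaled counts and not from TPM, was −0.43 (edgeR's quasi-likelihood test, Benjamini-Hochberg adjusted p = 0.00816). Orc4 and Orc5 had log2 fold changes of 0.06 and 0.07 (adjusted p = 0.615 and 0.446).

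Genes of helicase activation and origin firing were lower for 9 of 13 (median −0.35 on the log2 scale). Recql4, a helicase needed for origin firing, had the largest change, from 9.43 ± 1.72 to 6.05 ± 0.324 CPM (log2 fold change −0.64, edgeR's quasi-likelihood test, Benjamini-Hochberg adjusted p = 0.00384). Topbp1, a scaffold that helps to join CDC45 to the helicase, had the highest level, from 46.4 ± 6.55 to 32.0 ± 1.41 TPM. Its log2 fold change, from TMM-scaled counts and not from TPM, was −0.40 (edgeR's quasi-likelihood test, Benjamini-Hochberg adjusted p = 0.00489). In the fork protection list 2 of 3 were lower, and 1 of 3 without WT replicate 3 or 4 or without cKO replicate 1, 4 or 5. Tipin, which travels with the fork, fell from 37.7 ± 3.94 to 28.3 ± 2.79 CPM (log2 fold change −0.42, edgeR's quasi-likelihood test, Benjamini-Hochberg adjusted p = 0.006).

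Of 10 genes that control the turnover of licensing factors, 4 were lower, and the median log2 fold change was −0.13. The count was 2 without WT replicate 3, WT replicate 4 or cKO replicate 1, and 7 without TMM factors. Skp2, an F-box protein that targets CDT1 for destruction, had the largest change, from 29.3 ± 4.27 to 21.3 ± 1.04 CPM (log2 fold change −0.46, edgeR's quasi-likelihood test, Benjamini-Hochberg adjusted p = 0.0053). Pcna, the sliding clamp on which CDT1 is marked for destruction in S phase, had the highest level, from 297 ± 32.2 to 207 ± 9.36 TPM. Its log2 fold change, from TMM-scaled counts and not from TPM, was −0.38 (edgeR's quasi-likelihood test, Benjamini-Hochberg adjusted p = 0.00404).

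Among relatives and partners of the MCM proteins, 1 of 4 tested genes was lower, beside 12.7% of all tested genes. This was Mcm8 (log2 fold change −0.40, edgeR's quasi-likelihood test, Benjamini-Hochberg adjusted p = 0.0204), while Mcmbp, the most abundant, did not pass (−0.18, adjusted p = 0.0759). The list had 0 calls without WT replicate 4 or cKO replicate 1 and with WT replicates 3 and 4 both left out, and 2 without WT replicate 2, without TMM factors, with the effective length offset or on log2(TPM + 1). Mcmdc2, Mcidas and Gmnc had too few counts to be tested.

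Polymerases, the clamp loader and other fork genes were lower for 18 of 22. Lig1, which seals the fragments of the lagging strand, had the largest change, from 120 ± 16.1 to 83.3 ± 9.67 CPM (log2 fold change −0.52, edgeR's quasi-likelihood test, Benjamini-Hochberg adjusted p = 0.00437). Rfc2, a subunit of the clamp loader, had the highest level, from 102 ± 8.48 to 74.5 ± 5.97 TPM. Its log2 fold change, from TMM-scaled counts and not from TPM, was −0.35 (edgeR's quasi-likelihood test, Benjamini-Hochberg adjusted p = 0.00417). Of 16 genes of the G2/M phases, 4 were lower and 0 higher (median −0.24 on the log2 scale), and their summed level overlapped, at 1664 to 2000 CPM in WT and 1341 to 1924 CPM in cKO.

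**Figure D4:**
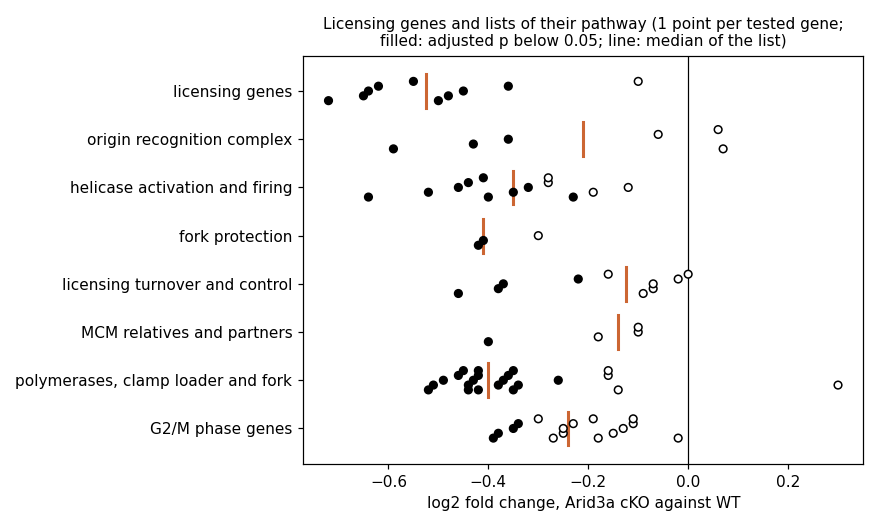
Log2 fold change, Arid3a cKO against WT, of each tested gene in the licensing group, the 6 pathway lists and the G2/M list; filled points passed the test and coloured lines are list medians. The medians run from −0.52 for the licensing genes to −0.13 for the turnover list, and no filled point lies above 0.

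Markers of the mature absorptive cell also differed between the genotypes. All 8 enterocyte markers were higher in cKO (median 1.84 on the log2 scale). Their summed level was 4069, 6011, 1886, 1191 and 3115 CPM in WT replicates 1 to 5 and 10410, 10540, 7473, 13900 and 14230 CPM in cKO replicates 1 to 5, with no overlap. Among WT animals, replicate 4 had the lowest enterocyte sum and the highest mean log2 CPM of Mcm2 to Mcm7, 0.54 above the mean of the 10 libraries, followed in both by replicate 3 at 0.37 and replicate 5 at 0.25. Replicates 1 and 2, with the 2 highest enterocyte sums of the WT group, had 0.11 and 0.12. In cKO, replicate 3 had the lowest enterocyte sum and the highest helicase level, at −0.18, but replicate 4 had nearly the highest sum and stood at −0.22, above replicate 1 at −0.36. Gmnn showed no such order among the WT animals. The part of the enterocyte transcripts in the lower licensing genes was not tested.

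**Figure D5:**
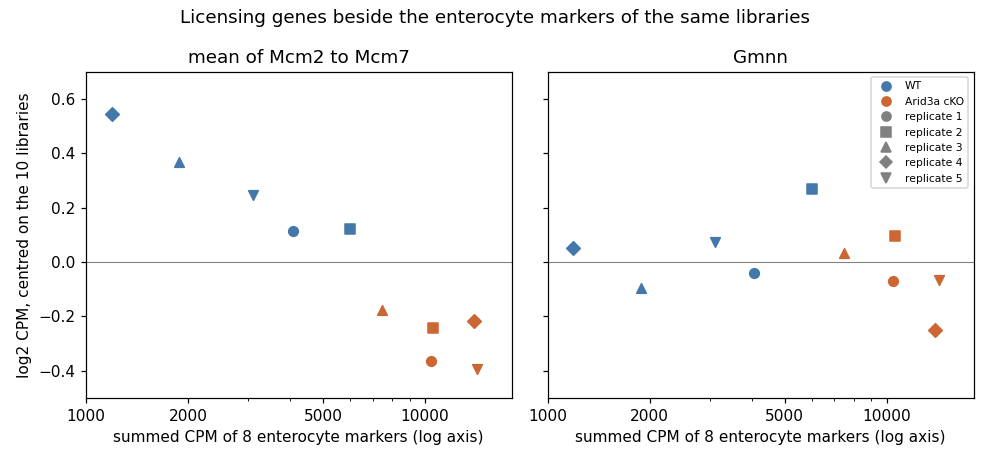
Summed CPM of 8 enterocyte markers (log axis) against centred log2 CPM of the mean of Mcm2 to Mcm7 (left) and of Gmnn (right), 1 point per library, shaped by replicate number. On the left the WT points descend from 0.54 at 1191 CPM to 0.11 at 4069 CPM, and the last lies at 0.12 at 6011 CPM. The cKO points there lie from −0.40 to −0.18. On the right the WT points (−0.10 to 0.27) and the cKO points (−0.25 to 0.10) overlap.

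Of the other marker lists, 4 of 5 crypt stem cell markers were lower in cKO, and their sums overlapped, at 4703 to 7724 CPM in WT and 3676 to 5557 CPM in cKO. Paneth cell markers were lower for 4 of 5 (summed level 7828 to 13960 CPM against 5552 to 7621 CPM), and 2 of 5 enteroendocrine and 3 of 4 tested tuft cell markers were higher. No goblet cell marker passed. Lymphocyte and plasma cell markers were lower for 1 of 8, Jchain, with sums of 73.3 to 146.5 CPM in WT and 41.8 to 96.4 CPM in cKO. Stromal and endothelial markers were lower for 1 of 6, Pecam1, with sums of 21.3 to 72.6 CPM and 15.5 to 133 CPM. Over all tested genes 12.7% were called lower and 15.6% higher. The counts of 1 of 8 and 1 of 6 are near that share and are not read as a change in these cells. The summed level of the 10 licensing genes was 1194 to 1576 CPM in WT and 872.5 to 996 CPM in cKO, and the part of these cell types in the result was not tested.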

How the data were processed

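Libraries of polyadenylated RNA (KAPA mRNA HyperPrep) were compared between 5 WT and 5 cKO animals. The authors ran nf-core/rnaseq, in which STAR aligned reads to GRCm38 and RSEM estimated the deposited expected counts, which are not normalized between libraries. TPM and FPKM as deposited are RSEM's values per transcript length, scaled per library, and the deposited length and effective length are in bases. RSEM divides reads shared between genes, and the study's methods name DESeq2 for its own comparison. Symbols matched 54723 of 54838 gene identifiers, and those without one took 0.0193% of the counts.

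Expected counts were rounded, filtered with filterByExpr (minimum count 10), scaled by TMM and tested with edgeR 4.0.16 (robust quasi-likelihood, R 4.3.3) over all 14719 genes that passed, which included all 10 members. An adjusted p below 0.05 was called. CPM are TMM-normalized. Depth ranged from 27050455 to 31053622 counts per library. Shares, ratios and lengths were compared by exact permutation over all assignments of the animals. The fit and the permutation test were tested on simulated data. In simulated counts the fit called 32 of 99 genes changed by 0.5 on the log2 scale and 66 of 97 changed by 1. It made 3 false calls. A gene that did not pass may therefore still differ. The changed genes were drawn at random over all levels and were far fewer than those called in the data. These rates are thus not the power for Gmnn or any other member. Alternatives were DESeq2 1.42.0, limma 3.58.1 (voom, and log2(TPM + 1) with a pseudocount of 1), other scalings and filters, unrounded counts, an effective length offset, FPKM or expected counts in place of TPM, a replicate block, and leaving out libraries. The ratio of Gmnn to the helicase was added after the data were seen. No 2 libraries were alike, with at least 21585 genes differing in count between any pair. Coordinates are those of GENCODE M21 or RefSeq on GRCm38.

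The members and gene lists were chosen with earlier results of these data known, and Mcm2, Mcm4, Mcm5, Mcm6, Cdc6 and Gmnn belong to a published S-phase list already examined in these libraries. The genes named from each pathway list were the one with the largest called change and the one with the highest mean TPM.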

Additional observations from a re-analysis of the deposited data

How the results depend on the processing

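The 9 calls among the licensing genes stayed in all 21 alternatives, with log2 fold changes between −0.85 (Cdc6 without TMM factors) and −0.27 (Mcm10 with the effective length offset), and DESeq2 and limma-voom called the same 9. The background was less stable. Genes called lower over all tested genes numbered 1869, but 4030 without TMM factors, 1191 with a replicate block, 671 with WT replicates 3 and 4 both left out, and 1131 to 2112 with 1 library left out, the lowest without WT replicate 4. Genes called higher numbered 2298, but 1411 in limma on log2(TPM + 1) and 1472 with WT replicates 3 and 4 left out. The 37 pathway genes called lower became 24 with WT replicates 3 and 4 left out and 28 to 37 with 1 library left out.

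Of the 9 shares and ratios, 3 passed on TPM and 0 on expected counts, and 0 to 3 with 1 library left out, the 0 without cKO replicate 1, 2, 3 or 5. The Mcm4 share, which did not pass, changed sign, to 0.00947 percentage points on expected counts and from −0.266 to 0.111 with 1 library left out. The log2 length difference of Mcm6 ran from −0.0019 to 0.00085 and that of Mcm7 from −0.026 to 0.018 with 1 library left out. The cause of these changes was not tested. Animals of the same replicate number showed little likeness, with correlations of deviations from −0.157 to 0.131 over the 5 numbers. Whether equal numbers share a litter or a batch was not tested. The replicate block changed no call among the licensing genes. Counting error was at most 4.37% for any member in any library.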
